A study of Homo sapiens with 6 samples.

Results

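The 10 genes described here respond to the extracellular signal-regulated kinases (ERK1/2) and were followed in a human hepatocellular carcinoma cell line made to overexpress transketolase (TKT), an enzyme of the non-oxidative pentose phosphate pathway. They were taken by symbol from the deposited count table, which lists 22077 symbols, and all 10 were present and passed the expression filter, among 14162 genes tested. The members were SPRY1, SPRY2, SPRY4, SPRED1 and SPRED2 of the Sprouty and SPRED families, the ETS transcription factors ETV4 and ETV5, and the output genes PHLDA1, EPHA2 and CCND1. The 7 Sprouty, SPRED and ETS genes were set against the last 3 genes, a contrast chosen with earlier results of these data known.

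The series holds 6 RNA-seq libraries, 3 with the over-expression genotype label and 3 with the label wt, which the table calls VC and which are taken here as vector control. The paper describes a TKT expression plasmid (pTSB02-GFP-PURO) brought in by transfection and followed by selection. The sources used here do not say whether the selected cells were pooled or grown from 1 clone, nor how long after transfection RNA was taken. The cell line label reads Hu7, the Results of the paper name Huh7 and its Methods name HCCLM3, and the libraries are treated here as Huh7. Libraries held between 30148788 and 37096156 counts. TKT itself rose 19.1-fold, with 9448 ± 87.99 CPM (counts after scaling every library to the same size) on overexpression and 494 ± 23.0 CPM in control cells (SD, n = 3 each, as for every value given with ± here). The hepatocyte-derived line was checked against 12 hepatocyte and hepatoma markers. Their summed level lay between 20707 and 21055 CPM on overexpression and between 20109 and 20496 CPM in controls. By the test below, 2 of these genes were higher and 1 lower, 27.3% of the 11 tested against 10.6% of all tested genes. APOB, a defining hepatocyte gene, had at most 6 counts in any library. Summed levels of 5 fibroblast markers were 9.91 to 10.2 CPM on overexpression and 9.27 to 11.0 CPM in controls. Those of 2 endothelial markers were 15.4 to 19.4 CPM and 17.1 to 20.5 CPM. Those of 5 leukocyte markers were 123 to 129 CPM and 154 to 164 CPM, mostly from LYZ.

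ERK is the last kinase of the RAS, RAF, MEK and ERK cascade, through which growth factor receptors drive proliferation. Active ERK induces its own inhibitors: Sprouty and SPRED proteins block the cascade between the receptor and RAF, with SPRED proteins acting through the RAS inactivator NF1. ETV4 and ETV5 are ETS factors of the PEA3 group whose transcription rises with ERK activity and which are silenced by the repressor CIC when ERK is low. CCND1 encodes cyclin D1, which carries the growth signal into the cell cycle, EPHA2 is an ephrin receptor tyrosine kinase, and PHLDA1 is a pleckstrin homology-like protein. Transcripts of this kind are commonly used to read out the activity of the cascade.

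Promoter sequence from RefSeq was at hand for 7 of the 10 members, with 11 windows of 300 bases in all (250 before and 50 after a transcript start, GRCh38.p14). There was no window for ETV4, ETV5 or CCND1, so the promoters of these genes were not searched. The 250 bases before the first listed start are shown for the members with the largest rises, PHLDA1 and EPHA2, and for the member with the largest fall, SPRY2, all 3 on the minus strand and written 5′ to 3′. Capitals mark TGAATGAA, an octamer that CIC recognises. The PHLDA1 stretch lies at chr12:76031777-76032026, the EPHA2 stretch at chr1:16156070-16156319 and the SPRY2 stretch at chr13:80341127-80341376. The PHLDA1 stretch precedes the RefSeq start used here but lies inside the gene by the GENCODE coordinates given below.
PHLDA1: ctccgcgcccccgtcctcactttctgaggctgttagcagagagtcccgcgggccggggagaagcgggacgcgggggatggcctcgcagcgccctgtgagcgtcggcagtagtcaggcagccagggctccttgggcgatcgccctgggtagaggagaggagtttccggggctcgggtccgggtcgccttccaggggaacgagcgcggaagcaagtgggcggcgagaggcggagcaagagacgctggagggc
EPHA2: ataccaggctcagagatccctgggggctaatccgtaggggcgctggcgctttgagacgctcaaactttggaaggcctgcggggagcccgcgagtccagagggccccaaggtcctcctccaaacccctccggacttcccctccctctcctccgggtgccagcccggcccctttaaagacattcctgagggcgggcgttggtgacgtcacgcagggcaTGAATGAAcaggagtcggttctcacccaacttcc
SPRY2: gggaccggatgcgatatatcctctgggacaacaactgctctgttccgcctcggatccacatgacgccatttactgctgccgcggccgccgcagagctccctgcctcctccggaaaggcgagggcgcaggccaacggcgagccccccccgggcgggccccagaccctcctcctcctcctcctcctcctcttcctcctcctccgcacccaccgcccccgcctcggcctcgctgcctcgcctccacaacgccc

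Each window was searched on both strands for 5 sets of letters. TGAATGAA was found in 1 of the 11 member windows, that of EPHA2, where it begins 34 bases before the transcript start, and in 1.65% of all 35116 promoter windows. Another CIC octamer, TCAATGAA, was in none of the 11 and in 0.718% of all windows. No other form of the CIC site was searched. The ETS letters CCGGAAGT were in none of the 11 and in 4.14% of all windows, and the E-box CACGTG was in none and in 7.26%. The AP-1 letters TGANTCA occurred in 1 member window, a downstream start of SPRED2, and in 7.71% of all windows. These are matches of letters in 300 bases and not measured binding. The GC content of the member windows lay between 39.3% and 76.3%, against a median of 58.7% over all windows.

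TKT-overexpressing cells had higher PHLDA1, EPHA2 and CCND1 and lower SPRY2 and ETV4. edgeR's quasi-likelihood test called 5 of the 10 members at an adjusted p-value under 0.05, 3 higher and 2 lower. Over all tested genes 10.6% were called, 5.69% higher and 4.94% lower, and 15.9% of those about as abundant as the members (average log2 CPM of 4 or more) were called. None of the 10 passed the stricter thresholds of the study (absolute log2 fold change over 1), which 0.727% of all tested genes passed. At those fold thresholds the count was also 0 with an unadjusted p under 0.05 and with DESeq2. The estimates of the 7 Sprouty, SPRED and ETS members were all below 0, with a median log2 fold change of -0.18, and those of PHLDA1, EPHA2 and CCND1 were above 0, with a median of 0.27. The median over all tested genes was 0.00082. In bulk RNA, fewer cells with a transcript and less of it per cell cannot be told apart.

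**Figure D1:**
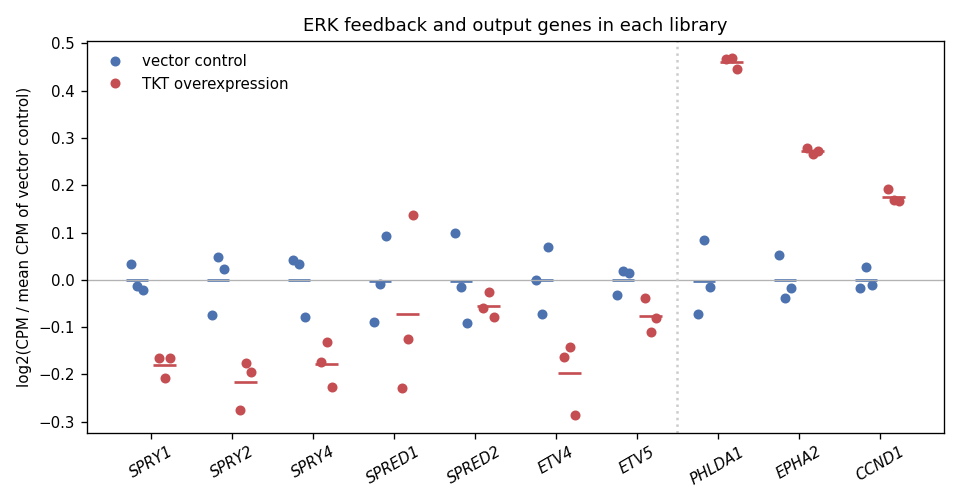
Level of each of the 10 genes in each library, as log2 of its CPM over the mean CPM of the vector control. Points are the 3 libraries of a group, bars are group means, and the dotted line separates the Sprouty, SPRED and ETS genes from the output genes. SPRY1, SPRY2, SPRY4 and ETV4 lie below the control points and PHLDA1, EPHA2 and CCND1 above them, while the points of SPRED1 and SPRED2 intermingle.

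Among the Sprouty genes, SPRY2 fell. SPRY2 (chr13:80335976-80340951, minus strand, GRCh38) had 44.5, 47.7 and 47.1 CPM in TKT-overexpressing libraries 1 to 3 and 51.2, 55.7 and 54.8 CPM in control libraries 1 to 3. The highest overexpressing library was below the lowest control. The log2 fold change was -0.22 (SE, the standard error, 0.06, 95% interval -0.33 to -0.10, adjusted p = 0.0163 in edgeR), a change of -13.9%. This call rested on few libraries, since the adjusted p was 0.119 without TKT overexpression replicate 1 and 0.0506 when vector control replicate 3 was dropped, and it passed in 11 of the 15 alternatives.

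SPRY1 and SPRY4 had estimates nearly as far below 0 but missed the threshold. SPRY1 (chr4:123396795-123403760, plus strand) had 34.5, 33.5 and 34.5 CPM on overexpression and 39.6, 38.4 and 38.1 CPM in controls, with a log2 fold change of -0.18 (SE 0.06, adjusted p = 0.0576 in edgeR). Its groups did not overlap, and neither did those of SPRY4, so that all 3 Sprouty genes were lower in each overexpressing library than in each control. SPRY4 (chr5:142310427-142326455, minus strand) had 34.1, 35.1 and 32.8 CPM on overexpression and 39.6, 39.3 and 36.4 CPM in controls, and its log2 fold change was -0.18 (SE 0.06, adjusted p = 0.0752 in edgeR). Their unadjusted p-values in edgeR were 0.00659 and 0.00980, and the 95% intervals, -0.30 to -0.06 and -0.31 to -0.05, lay below 0.

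The SPRED genes, which share the Sprouty domain, did not move beyond their spread. SPRED1 (chr15:38252326-38357249, plus strand) had 16.3, 17.5 and 21.0 CPM on overexpression against 17.9, 18.9 and 20.3 CPM in controls, so that overexpressing replicate 3 was the highest and replicate 1 the lowest of the 6 libraries. With 539 to 689 counts it was the least deeply counted member, and its log2 fold change of -0.06 had a 95% interval of -0.27 to 0.14 (adjusted p = 0.766 in edgeR). The SPRED1 estimate was 0.01 without TKT overexpression replicate 1. SPRED2 (chr2:65310851-65432637, minus strand) had 75.3, 77.2 and 74.4 CPM against 84.1, 77.7 and 73.8 CPM, with control replicate 1 standing above the rest. Its log2 fold change was -0.05 (95% interval -0.17 to 0.06, adjusted p = 0.617 in edgeR). The intervals still allow a fall as large as that of SPRY2 for SPRED1, and one of 11.0% for SPRED2.

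Of the ETS factors, ETV4 fell. ETV4 (chr17:43527844-43579620, minus strand) had 241, 244 and 221 CPM in the overexpressing libraries and 269, 256 and 283 CPM in the controls. The groups did not overlap, and the log2 fold change was -0.20 (SE 0.04, 95% interval -0.29 to -0.10, adjusted p = 0.00605 in edgeR), a change of -12.7%. With each library left out in turn it lay between -0.23 and -0.15 and passed the threshold each time, and it passed in 13 of the 15 alternatives. The call was lost with limma on unfiltered FPKM values (adjusted p = 0.110). DHX8, a helicase gene annotated across ETV4 on the opposite strand, shares 68 of the 3607 exonic bases of ETV4 and had a log2 fold change of -0.07 (adjusted p = 0.403 in edgeR).

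ETV5 (chr3:186046308-186110318, minus strand) had 75.4, 71.7 and 73.2 CPM on overexpression and 75.7, 78.4 and 78.2 CPM in controls. The groups were separated by less than 1 CPM, and they overlapped in the FPKM values of the authors. Its log2 fold change was -0.08 (SE 0.05, 95% interval -0.18 to 0.03, adjusted p = 0.401 in edgeR). The ratio of ETV4 to ETV5 counts was 3.20 ± 0.193 on overexpression and 3.48 ± 0.185 in controls (SD, n = 3 each), and these ranges overlapped.

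PHLDA1 had the largest change of the 10 genes. PHLDA1 (chr12:76025447-76033932, minus strand) had 68.6, 68.7 and 67.7 CPM on overexpression and 47.2, 52.6 and 49.1 CPM in controls. The 3 overexpressing libraries lay within about 1 CPM of each other and well above the controls. The log2 fold change was 0.46 (SE 0.05, 95% interval 0.35 to 0.57, adjusted p = 5.08e-06 in edgeR), a rise of 37.6%, and by p-value the gene ranked 79 among the 14162 tested. Antisense transcripts annotated across 553 and 779 of its 8069 exonic bases were not analysed here. Neither PHLDA2 nor PHLDA3 was among the tested genes.

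EPHA2 (chr1:16124337-16156087, minus strand) was also higher. It had 255, 253 and 254 CPM on overexpression and 219, 205 and 208 CPM in controls. No overexpressing library overlapped a control, and the log2 fold change was 0.27 (SE 0.04, 95% interval 0.19 to 0.35, adjusted p = 4.06e-05 in edgeR), a rise of 20.8%.

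CCND1 (chr11:69641087-69654474, plus strand) had the most counts of the 10 genes. It had 423, 416 and 415 CPM on overexpression and 365, 377 and 367 CPM in controls, again without overlap. Its log2 fold change was smaller than that of the other output genes, 0.18 (SE 0.03, 95% interval 0.11 to 0.25, adjusted p = 0.00159 in edgeR), a rise of 13.0%. LTO1, on the opposite strand, shares 497 of the 4830 exonic bases of CCND1, had 1317 to 2091 counts where CCND1 had 11449 to 15667, and rose with a log2 fold change of 0.34 (adjusted p = 2.00e-04 in edgeR). Whether the counting used strand is not given in the sources used here, and the part of LTO1 in the CCND1 value was not tested. PHLDA1, EPHA2 and CCND1 passed the threshold in each of the 15 alternative analyses.

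**Figure D2:**
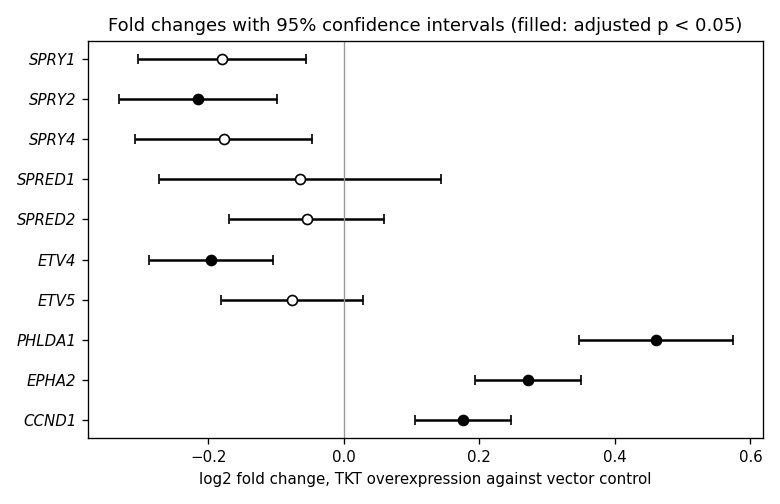
Log2 fold change of each member with its 95% confidence interval from edgeR (horizontal axis), TKT overexpression against vector control, 3 libraries each. Filled points have an adjusted p-value under 0.05 over all tested genes. The intervals of SPRED1, SPRED2 and ETV5 cross 0, and those of the output genes do not meet those of the other 7 genes, except that of SPRED1, whose upper end of 0.14 passes the lower end of CCND1.

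In 8 of the 10 members the CPM ranges of the groups did not overlap, 3 higher and 5 lower, against 28.0% of all tested genes. SPRED1 and SPRED2 were the exceptions. Ratios of raw counts within a library, which need no scaling, show the same contrast on another scale. They put genes already called higher over genes already called lower or below 0, so they restate the calls and add no independent support. CCND1 had 1.76, 1.70 and 1.88 counts per ETV4 count in the overexpressing libraries and 1.36, 1.47 and 1.30 in the controls. EPHA2 had 1.08 ± 0.0593 counts per ETV4 count on overexpression and 0.783 ± 0.0405 in controls (SD, n = 3 each), so that EPHA2 was the less counted gene of the pair in each control and the more counted in each overexpressing library. PHLDA1 crossed SPRY2 in raw counts in the same way, with 1.54, 1.44 and 1.44 counts per SPRY2 count against 0.922, 0.944 and 0.897. Raw counts also depend on gene length, so these crossings do not order the levels of the genes. In the FPKM values of the authors, which are per length, PHLDA1 stayed below SPRY2 and EPHA2 below ETV4 in each library. Of the 21 ratios of an output gene to a Sprouty, SPRED or ETS gene, 19 were higher in each overexpressing library than in each control, and the exceptions were those of EPHA2 and CCND1 to SPRED1. The 21 ratios share genes and libraries and are not independent. The mean log2 count of the 3 output genes minus that of the other 7 was 1.85 ± 0.0255 on overexpression and 1.41 ± 0.0221 in controls (SD, n = 3 each), a difference of 0.44.

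**Figure D3:**
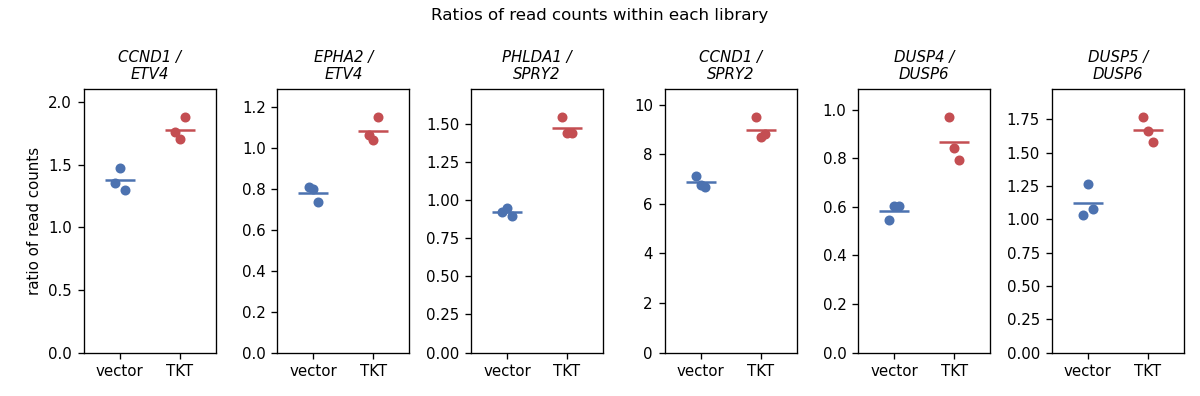
Ratios of raw read counts of a pair of genes within each library (vertical axes start at 0). Points are libraries and bars are group means. In each of the 6 panels the 3 overexpressing libraries lie above the 3 controls, for example 0.792 to 0.967 DUSP4 counts per DUSP6 count against 0.543 to 0.605.

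Levels of different genes were compared per length, with the deposited FPKM values (fragments per kilobase of transcript, scaled by library size). In control cells CCND1 had 77.3 ± 1.94 FPKM and ETV4 76.2 ± 3.16 FPKM (SD, n = 3 each), and their ranges overlapped, so these neighbours could not be ordered. EPHA2 followed with 50.6 ± 1.47 FPKM, and then a lower tier held SPRY2 (16.7 FPKM), SPRED2 (14.2 FPKM), ETV5 (13.3 FPKM), SPRY1 (9.72 FPKM), PHLDA1 (8.36 FPKM) and SPRY4 (5.83 FPKM). SPRED2 and ETV5 had overlapping ranges, and the other neighbours in that tier did not overlap. SPRED1 was lowest with 2.45 ± 0.152 FPKM, below CCND1 by 31.6-fold. On overexpression CCND1, with 87.5 ± 1.26 FPKM, stood clear of ETV4, with 66.7 ± 2.73 FPKM, and EPHA2 reached 61.3 ± 0.906 FPKM, just below the lowest ETV4 library at 63.6 FPKM. PHLDA1 (11.5 FPKM) and SPRY1 (8.61 FPKM) changed places in the order, and the rest kept theirs.

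**Figure D4:**
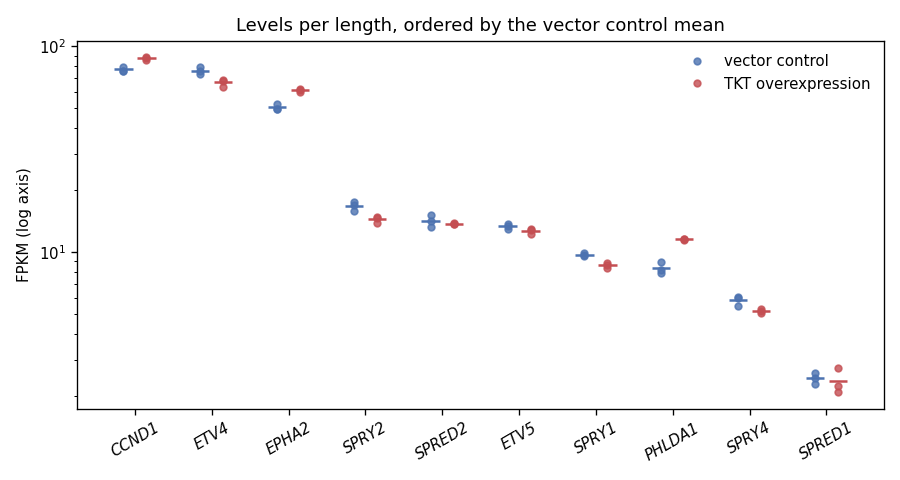
FPKM of the 10 genes in each library on a log axis, in the order of their control means. Points are libraries and bars are group means. CCND1, ETV4 and EPHA2 lie between 49.7 and 88.4 FPKM, the other genes below 18 FPKM, and SPRED1 lowest.

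Other genes of the pathway were read from lists written with earlier results of these data known. Of the 78 tested pathway genes outside the members, 10 were called higher and 5 lower by edgeR, with a median log2 fold change of 0.03. These were 19.2% of the 78, against 10.6% of all tested genes and 15.9% of those at the abundance of the members. The calls in the ETS list below were 13.3% of its tested genes and those in the list of negative regulators 9.09%, shares near that background. Larger shares were called of the MAPK activity score (77.8%), the ERK phosphatases (60%), the G1 genes (36.4%) and the EPH receptors and ephrins (33.3%). The share was 22.2% for the immediate-early genes and 0 for the kinases and adaptors. The score, G1 and EPH lists include members. The direct relatives had few tested genes. ETV1, the third PEA3 factor, had 39.0, 35.7 and 39.3 CPM on overexpression and 41.8, 47.9 and 40.1 CPM in controls, a log2 fold change of -0.19 that missed the threshold (adjusted p = 0.0809 in edgeR). SPRED3 missed it too, with a log2 fold change of 0.75 (adjusted p = 0.412 in edgeR) from under 1 CPM. Neither was called by edgeR or DESeq2 with all 6 libraries, and 1 had an unadjusted p under 0.05. With vector control replicate 3 left out ETV1 was called, with an estimate of -0.24 (adjusted p = 0.0454 in edgeR).

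The phosphatases that inactivate ERK moved both ways. DUSP4, a nuclear phosphatase, rose from 32.1, 32.6 and 33.6 CPM in controls to 45.0, 40.5 and 41.4 CPM, a log2 fold change of 0.37 (SE 0.06, adjusted p = 3.85e-04 in edgeR). DUSP5, also nuclear, rose with the same estimate of 0.37 (SE 0.06, adjusted p = 1.30e-04 in edgeR), and had 81.5 ± 1.50 CPM on overexpression and 63.2 ± 4.59 CPM in controls. DUSP6, a cytoplasmic ERK phosphatase and a classical feedback gene, fell from 59.0, 54.1 and 55.6 CPM to 46.5, 48.1 and 52.2 CPM, with a log2 fold change of -0.20 (SE 0.06, adjusted p = 0.0283 in edgeR). The DUSP6 call was lost in 8 of 15 alternatives, with adjusted p-values in edgeR of 0.180 and 0.0837 without TKT overexpression replicates 1 and 2 and of 0.158 and 0.0506 when vector control replicates 1 and 3 were left out. DUSP7 had an estimate of -0.16 (adjusted p = 0.0802 in edgeR) and DUSP9 one of 0.04 (adjusted p = 0.621 in edgeR). Both tested phosphatases that prefer the stress kinases JNK and p38, DUSP1 and DUSP10, rose more than any member, with log2 fold changes of 1.26 and 1.07.

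A set of 10 transcripts in common use as a MAPK activity score, which shares 7 genes with the members, held calls in both directions. Of its 9 tested genes, PHLDA1, EPHA2, CCND1 and DUSP4 were higher, SPRY2, ETV4 and DUSP6 were lower, and SPRY4 and ETV5 missed the threshold. The median log2 fold change of the 9 was -0.08. EPHA4, its last gene, was not analysed here.

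The kinases and adaptors of the cascade itself gave no call in edgeR. Of 16 tested genes, 0 passed an adjusted p-value of 0.05, 2 had an unadjusted p under 0.05 (SHC1 and MAPK3, with estimates of -0.10 and -0.16), and DESeq2 called 1, SHC1. The median of the 16 was 0.01. Of 11 tested negative regulators of RAS and receptors, 1 was called, RASAL2, a RAS GTPase-activating protein, which rose to 35.3 ± 3.08 CPM from 24.8 ± 1.52 CPM in controls (log2 fold change 0.51, adjusted p = 1.14e-04 in edgeR). NF1, through which SPRED proteins act, had an estimate of 0.14 with a wide interval of -0.20 to 0.48.

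In the list of other ETS factors and CIC, 2 of 15 tested genes were called. This share of 13.3% was below the 15.9% of genes at the abundance of the members. Of the 15 estimates 7 were above 0 and 8 below, with a median of -0.0014. The CPM ranges of the groups did not overlap for 4 genes on the higher side and 3 on the lower. ELF3, an epithelial ETS factor, had a log2 fold change of 0.50 (adjusted p = 1.30e-05 in edgeR) and ELF1 one of 0.36 (adjusted p = 4.11e-04 in edgeR). None of the 15 was called lower. CIC, the repressor of the PEA3 genes, had a log2 fold change of -0.05 (95% interval -0.17 to 0.07). The immediate-early genes downstream of ERK had 9 tested members with a median of 0.20, all with estimates above 0. JUN, a subunit of AP-1, rose by 0.77 on the log2 scale, to 171 ± 3.52 CPM against 100.2 ± 2.52 CPM in controls. FOSB, the other called gene, had a log2 fold change of 0.62 and between 4 and 8 CPM. The FOSB adjusted p in edgeR was 0.0991 and 0.108 without TKT overexpression replicates 1 and 3, and 0.0672 and 0.0595 when vector control replicates 1 and 3 were left out.

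Of 11 tested G1 cell cycle genes, CCND1 included, CCND1 was the 1 that rose and 3 fell. CDKN1A, which encodes the CDK inhibitor p21, went from 16.2, 15.2 and 16.3 CPM in controls to 12.5, 10.8 and 9.49 CPM (log2 fold change -0.54, SE 0.11, adjusted p = 0.00265 in edgeR). CDKN2C, an inhibitor of CDK4 and CDK6, had a log2 fold change of -0.52 (SE 0.11, adjusted p = 0.00379 in edgeR). E2F1, the transcription factor released by cyclin D kinases, had an estimate of -0.20 (adjusted p = 0.0178 in edgeR). That call was lost at 0.101 when TKT overexpression replicate 1 was left out and at 0.133 when vector control replicate 1 was. CCND3, CDK4 and CDK6 had estimates of 0.12, -0.13 and 0.06 and missed the threshold. Of 9 tested EPH receptors and ephrins, 2 were called higher, EPHA2 and EFNA3, and 1 lower, EPHB4. EPHB4 had a log2 fold change of -0.15 (adjusted p = 0.0274 in edgeR) and EFNA3, an ephrin ligand with under 4 CPM, one of 0.79 (adjusted p = 0.0277 in edgeR). Each of this pair of calls was lost in 4 of the 6 fits that left out 1 library: EPHB4 at 0.0795 and 0.106 without TKT overexpression replicates 1 and 3 and at 0.155 and 0.0790 without vector control replicates 1 and 3, and EFNA3 at 0.104 and 0.122 without TKT overexpression replicates 2 and 3 and at 0.0886 and 0.0709 without vector control replicates 1 and 2.

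**Figure D5:**
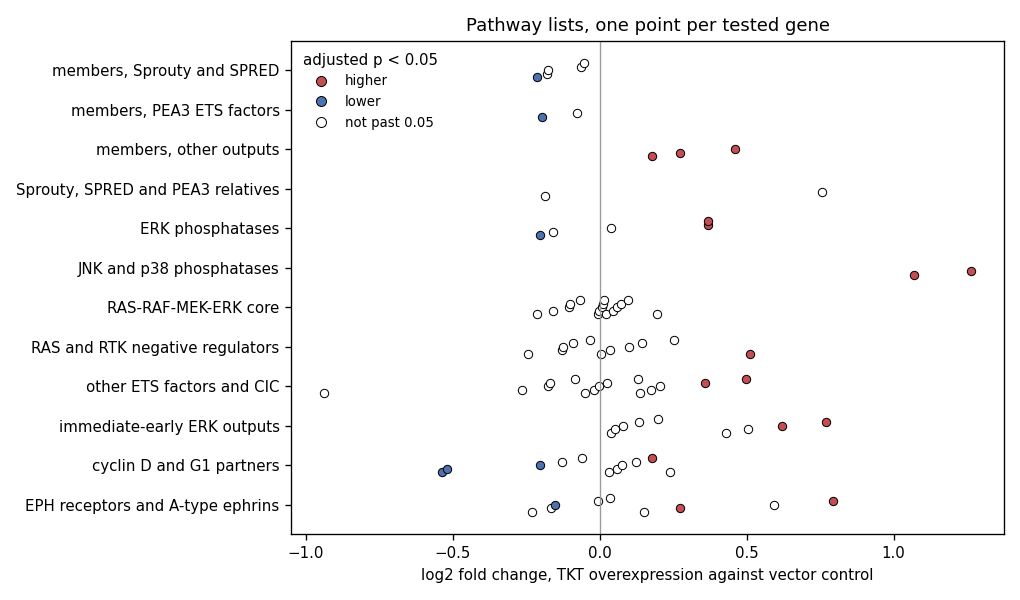
Log2 fold change (horizontal axis) of the tested genes of each pathway list, 1 point per gene, with genes higher in red, lower in blue and not past an adjusted p-value of 0.05 in white. The 7 Sprouty, SPRED and ETS members lie left of 0 and the 3 output genes right of it, and the ERK phosphatases appear on both sides, from -0.20 to 0.37.

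For each member, the gene outside the list with the most similar log2 CPM over the 6 libraries was sought among 11276 genes whose average log2 CPM was 1 or more. Pearson's r, given as a description over 6 libraries that differ by condition, lay between 0.987 and 0.999. The closest gene was CREB5 for PHLDA1, CLK3 for EPHA2 and KLRK1-AS1 for CCND1, with log2 fold changes of 1.22, 0.26 and 0.58. It was GALK1 for ETV4, GLMN for SPRY2 and GBA2 for SPRY1, with log2 fold changes of -0.29, -0.13 and -0.14. CREB5, CLK3, KLRK1-AS1 and GALK1 were called, whereas GLMN (adjusted p = 0.387 in edgeR) and GBA2 (adjusted p = 0.0542 in edgeR) were not. An r over 0.95 was reached by 284 genes for CCND1 and by 15 for SPRED1.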

How the data were processed

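Per the labels and the methods of the paper, total RNA was extracted with TRIzol and sequenced from both ends of each fragment (150 bp) on an Illumina NovaSeq instrument. The authors trimmed reads with fastp 0.22.0, aligned them to hg38 with HISAT2 2.1.0 and counted them per gene with featureCounts. They deposited counts without normalization and FPKM values for the same 6 libraries. The annotation and the strand and multi-mapping options are not given in the sources used here. No column was left unused. The columns named TKT were matched to the overexpression samples by gene name and replicate number.

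The count table was tested with edgeR 4.0.16 under R 4.3.3 (filterByExpr at a minimum count of 10, TMM, robust quasi-likelihood test across all genes, Benjamini-Hochberg adjustment, no pairing). Standard errors come from the quasi-likelihood F statistic and intervals from its degrees of freedom. Calls were made below an adjusted p-value of 0.05. DESeq2 1.42.0 and limma 3.58.1 on log2(FPKM + 1) and log2(FPKM + 0.1) served as alternatives, with other scalings, other filters, the replicate number as a block and each library left out. The labels number the samples of a group but do not say that they came from separate cultures grown independently, so p-values measure the spread between these samples, which may be technical. With 539 counts in the thinnest library of the thinnest member, counting error alone was 4.31%, and the biological coefficient of variation common to all genes was 0.113. Gene coordinates are those of GENCODE on GRCh38 and promoters those of RefSeq. The code was tested on simulated counts with a smaller spread than these data, which checks the code and not the calls made here. The members and lists were chosen with earlier results of these data known. Genes named beyond the members are those of the lists that were called, listed genes that a count or family comparison turns on, the gene most like a member, and, chosen after their values were seen, DHX8 and LTO1, which overlap members, and APOB and LYZ. The abundance limit of a mean log2 CPM of 4 was also set after values were seen.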

Additional observations from a re-analysis of the deposited data

How the results depend on the processing

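PHLDA1, EPHA2 and CCND1 kept their direction and their call in all 15 alternatives, with log2 fold changes of 0.42 to 0.51, 0.26 to 0.30 and 0.17 to 0.19. SPRY2 and ETV4 kept their direction in all 15 and their call in 11 and 13. SPRY1, SPRY4, SPRED2 and ETV5 stayed below 0 and uncalled in all 15, and SPRED1 lay between -0.18 and 0.011 with each library left out, and among the 15 it was above 0 only without TKT overexpression replicate 1.

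No sign was seen that the replicate numbers pair the libraries. The labels do not say, and this check cannot show that no pairing existed. Deviations of same-numbered libraries correlated at -0.0019, -0.025 and 0.016, and not every library correlated best with its own number. With the replicate number as a block, 697 genes were called at an adjusted p-value under 0.05, and 67 when the fold change also had to pass 1, against 1505 and 103. With that block 0 members were called lower by edgeR, with adjusted p-values of 0.0517 for SPRY2 and 0.0627 for ETV4 (4 members were lower at an unadjusted p under 0.05, and DESeq2 without the block called 2 lower), and the 3 output genes were still called. Limma on log2(FPKM + 1) without a filter called 325 genes, 14 with the fold threshold, and 0 members lower (adjusted p of 0.121 for SPRY2 and 0.110 for ETV4, with 4 lower at an unadjusted p under 0.05). With the fold threshold, DESeq2 called 63 genes, edgeR without a filter 160, limma on log2(FPKM + 1) 15 and on log2(FPKM + 0.1) 33. With each library left out, between 791 and 1586 genes were called (791 without TKT overexpression replicate 1, 881 when vector control replicate 1 was dropped), and between 1 and 2 members were lower. The cause of these moves was not tested.

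At this depth a change of 12.7% was called for ETV4, whereas the 95% interval of SPRED1, from -17.2% to 10.5%, covers falls of that size. Transcript levels do not measure ERK phosphorylation, which the paper assessed by western blot and reports as higher in Huh7 cells overexpressing TKT.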

Other observations

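Among 11 tested hepatocyte and hepatoma markers, a group outside the ERK pathway, ALB and AFP had log2 fold changes of 0.03 and 0.05 and were not called. FGB, which encodes the fibrinogen beta chain, rose from 578 ± 12.4 to 818 ± 8.92 CPM (SD, n = 3 each, log2 fold change 0.50, adjusted p = 8.85e-10 in edgeR), and FOXA2, a liver transcription factor, rose with a log2 fold change of 0.35 (adjusted p = 8.60e-05 in edgeR). HNF4A, a transcription factor that maintains hepatocyte identity, fell by 0.15 on the log2 scale (adjusted p = 0.00720 in edgeR), a call lost at 0.0555 when TKT overexpression replicate 1 was dropped. LYZ, a lysozyme gene listed here as a leukocyte marker, had 151 ± 6.26 CPM in controls and 119 ± 3.06 CPM on overexpression (SD, n = 3 each), while the other detected leukocyte marker, CD14, had under 10 CPM.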
